A study of Mus musculus with 16 samples.

Results

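The interleukin-1, interleukin-6 and tumor necrosis factor systems were examined in knee joint cells through 9 genes chosen by name: Il1b, Il1rn, Il1r1, Il1r2, Il18, Il6, Osm, Lif and Tnf. All 9 are among the 13733 genes of the deposited table, and all 9 passed the filter on low values. Despite the group's common name as cytokines, Il1r1 and Il1r2 encode receptors and Il1rn encodes a receptor antagonist. The data are bulk RNA-seq of 16 mice, with 4 WT and 4 Trem2-/- mice on each of D0 and D7, and they address whether the joint's response to injury differs without Trem2, a surface receptor of myeloid cells. D0 joints were uninjured, and D7 joints were collected 7 days after rupture of the anterior cruciate ligament by 1 compressive overload of the tibia. Each value is a CPM, the gene's read count scaled to a common library size, with adjustment of the libraries by the TMM method.

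The WT groups are C57BL/6 mice, and the Trem2-/- groups carry the em2Adiuj allele on C57BL/6J in every cell of the body, so loss of Trem2 is not limited to joint cells or to macrophages. The study describes male mice injured at 10 weeks of age and cells freed from the joint by enzymatic digestion with lysis of red blood cells. The labels give the injury at 10 weeks and cells of knee joints, but also an age of 16 weeks and, in the extraction protocol, homogenized joints of control and T1DM mice. Genotype and day do not differ between these sources. Whether the cells were enriched for CD45, the pan-leukocyte surface protein, is not stated for these libraries. Trem2 itself was at 10.7 to 22.5 CPM at WT D7 and 3.42 to 4.84 CPM at Trem2-/- D7, and at D0 it was at 2.51 to 5.61 CPM in WT and 0.948 to 2.68 CPM in Trem2-/-. These libraries hold between 11567073 and 32867818 reads. Among the 9 genes Il18 had the fewest reads, 27 to 121 per library, and each of the others had at least 406.

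IL-1β, the product of Il1b, is made mainly by activated myeloid cells and binds Il1r1, which signals through Myd88 and IRAK kinases to NF-kB. Il1rn encodes the antagonist that occupies the same receptor without signaling, and Il1r2 encodes a decoy receptor that binds IL-1β but lacks a signaling domain. IL-18 is, like IL-1β, matured by inflammasome-activated caspase-1. IL-6, oncostatin M and LIF each assemble a receptor that contains gp130, the product of Il6st, and activates JAK kinases and STAT3. TNF acts on Tnfrsf1a and Tnfrsf1b, and with IL-1β it is known in injured joints as an inducer of matrix-degrading enzymes in chondrocytes and synovial fibroblasts.

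Promoter windows, the 250 bases upstream of a RefSeq start on GRCm38.p6, were available for 8 of the 9 genes in 11 windows. Those of Il1b, Il1r2 and Il6 are printed because all these genes fell after injury in both genotypes while their windows differ in matches to the motifs of transcription factors of these pathways. Capitals mark matches on either strand to AP-1 (TGANTCA), C/EBP (TTGCNNAA), STAT (TTCNNNGAA) and the NF-kB consensus. The windows are chr2:129371140-129371389 on the minus strand for Il1b, chr1:40085843-40086092 on the plus strand for Il1r2, inside its annotated span, and chr5:30012864-30013113 on the plus strand for Il6.
Il1b: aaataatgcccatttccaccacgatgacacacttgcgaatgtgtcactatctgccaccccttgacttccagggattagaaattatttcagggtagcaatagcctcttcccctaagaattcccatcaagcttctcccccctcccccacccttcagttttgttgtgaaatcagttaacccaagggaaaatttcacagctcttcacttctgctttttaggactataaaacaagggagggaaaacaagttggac
Il1r2: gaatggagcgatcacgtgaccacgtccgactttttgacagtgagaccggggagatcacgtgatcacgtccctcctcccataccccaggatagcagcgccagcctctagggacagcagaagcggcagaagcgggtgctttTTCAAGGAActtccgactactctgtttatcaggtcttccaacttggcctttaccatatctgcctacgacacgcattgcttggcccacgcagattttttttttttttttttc
Il6: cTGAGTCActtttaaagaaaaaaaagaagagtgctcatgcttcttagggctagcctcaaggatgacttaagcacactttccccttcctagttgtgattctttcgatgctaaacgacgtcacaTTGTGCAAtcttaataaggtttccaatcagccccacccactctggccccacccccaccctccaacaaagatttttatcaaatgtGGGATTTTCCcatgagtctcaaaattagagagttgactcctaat

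The window of Il6 holds a match to NF-kB at -44, to C/EBP at -128 and to AP-1 at -249, counted in bases from the start to the first base of the match. That of Il1r2 holds a STAT match at -111, and that of Il1b holds no match, which says only that these letters are not in it. Elsewhere among the 9 genes, AP-1 matches lie at -141 in Il1rn and at -228 in Lif, and Il1r1 has a C/EBP match at -133 of its first window and an NF-kB match at -232 of its second. No match to these 4 motifs is in the windows of Tnf or Il18. Over all 32851 RefSeq windows of this length, 3.90% hold the NF-kB consensus, 6.75% AP-1, 9.56% C/EBP and 7.02% STAT. A match is a stretch of letters and does not show binding.

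In the GENCODE M21 annotation of GRCm38, several of these genes are neighbors. Il1r2 (chr1:40074079-40125231, plus strand) and Il1r1 (chr1:40225080-40317257, plus strand) lie 99.8 kb apart, and Osm (chr11:4236420-4241026, plus strand) and Lif (chr11:4257557-4272514, plus strand) lie 16.5 kb apart. Il1b (chr2:129364570-129371139, minus strand) and Il1rn (chr2:24336853-24351494, plus strand) share a chromosome but not a neighborhood. Il6 is at chr5:30013114-30019981 on the plus strand, Tnf at chr17:35199381-35202007 on the minus strand and Il18 at chr9:50554827-50581840 on the plus strand. Of the 9 genes, Il1b alone shares exon sequence with another annotated gene, 25 of its 1907 exon bases with the antisense gene Il1bos.

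Per kilobase of exon, Il1b was the most abundant of the 9 transcripts on average in all 4 groups and Il1r2 came next. At WT D0, Il1b was at 459 ± 161 CPM per kb (SD, n = 4) and Il1r2 at 435 ± 153, levels closer than their spread. Il6 (143 ± 66.3), Osm (125 ± 26.7) and Il1rn (91.9 ± 12.8) followed, again with overlapping ranges. Tnf (42.8 ± 12.9) and Il1r1 (30.5 ± 13.8) were next, and Lif (10.8 ± 4.07) and Il18 (3.64 ± 0.221) were lowest. At Trem2-/- D7 the order had Il1b at 177 ± 37.8, Il1r2 at 127 ± 23.5, Il6 at 83.2 ± 14.6 and Il18 at 2.93 ± 0.772 CPM per kb. Lif and Il18 held the lowest places in every group.

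At D7 Il1b, Il1r2, Il6 and Osm were lower in both genotypes. Among the 9 genes, 4 fell and 0 rose in WT, and 7 fell and 0 rose in Trem2-/-, at an unadjusted limma p under 0.05 and a log2 fold change beyond 0.32 in either direction, the limits of the study's methods. By this rule 18.2% of all 13173 genes tested fell and 37.4% changed in WT, and 27.9% fell and 54.5% changed in Trem2-/-. Il1b, Il1r2, Il6 and Osm fell in both genotypes, which 16.2% of all genes did. With Benjamini-Hochberg adjustment over all genes 4 of 9 passed in WT and 6 of 9 in Trem2-/-, where 12.6% and 27.2% of all genes were lower. With edgeR on recovered reads 1 of 9, Il6, passed that adjustment in WT, with Il1b, Il1r2 and Osm at adjusted p of 0.0584, 0.0716 and 0.0606, and 6 of 9 passed in Trem2-/-. The median log2 fold change of the 9 genes was -0.58 in WT and -1.04 in Trem2-/-, and that of all genes was -0.04 in both.

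**Figure D1:**
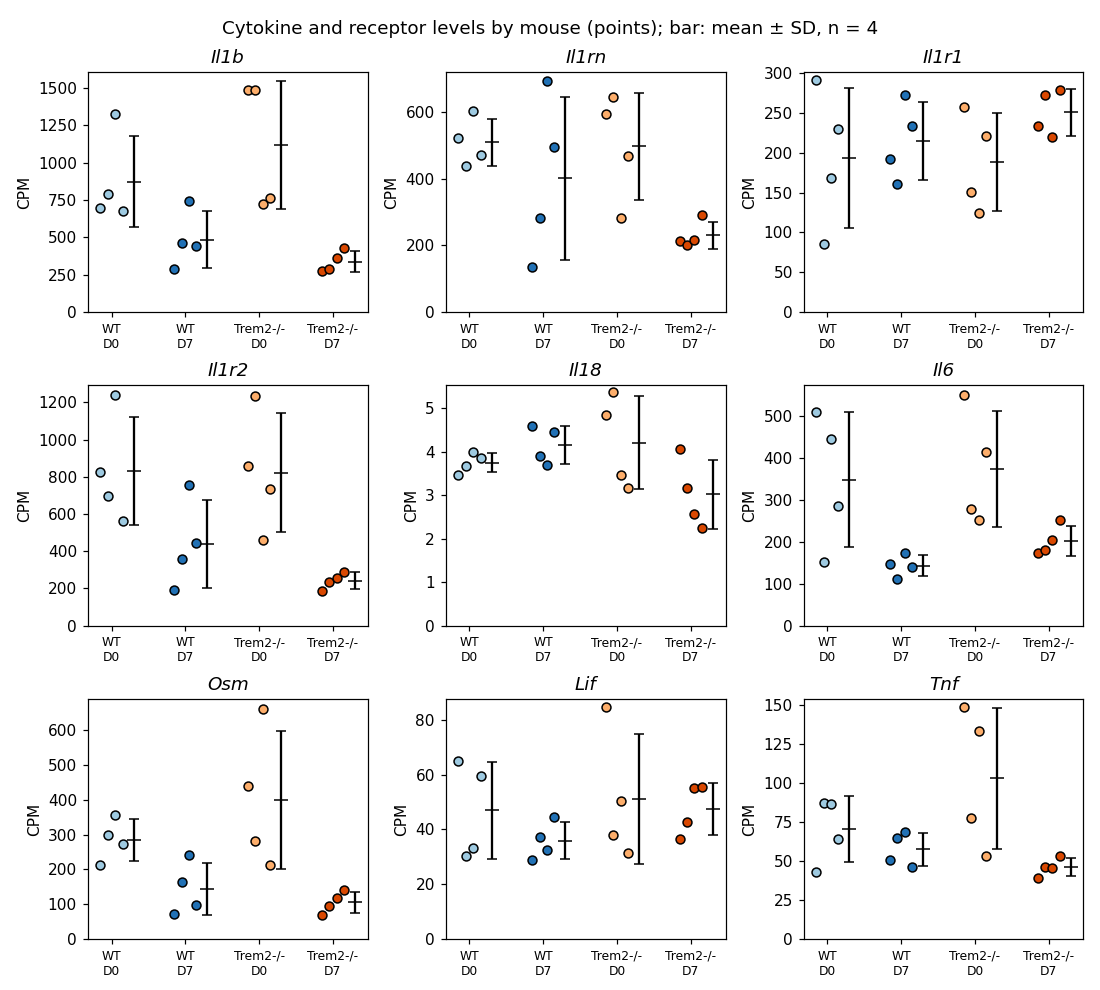
Level of each of the 9 genes in CPM (vertical axis, from 0, a separate scale per gene) in WT and Trem2-/- mice at D0 and at D7. Points are mice, replicates 1 to 4 from left to right, and the bar beside them is the mean ± SD (n = 4). At Trem2-/- D7 Il1b, Il1r2 and Osm can be seen below all 4 Trem2-/- D0 mice. Il6 lies below them by a narrow margin, with its highest D7 mouse at 251 CPM and its lowest D0 mouse at 253 CPM.

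Il1b, the IL-1 agonist, was at 700.3, 794, 1328 and 676 CPM in WT mice 1 to 4 at D0 and at 288, 461, 744 and 444 CPM at D7. The groups overlapped only through D7 mouse 3, which exceeded 2 of the D0 mice. Il1b fell by 0.88 on the log2 scale in WT (SE 0.31, 1.83-fold, adjusted p = 0.0483). The Trem2-/- mice were at 1487, 1487, 724 and 767 CPM at D0 and at 272, 286, 365 and 427 CPM at D7, with no overlap. The fall in Trem2-/- was 3.16-fold (log2 -1.66, SE 0.31, adjusted p = 0.000504).

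The receptor antagonist Il1rn did not pass the test in WT and fell in Trem2-/-. It was at 523, 439, 602 and 471 CPM at WT D0, and the 4 WT D7 mice spread from 136 and 281 to 496 and 693 CPM, on both sides of the D0 values. The WT difference was -0.58 (95% interval -1.39 to 0.23, adjusted p = 0.259). Among Trem2-/- mice Il1rn went from 594, 644, 283 and 469 CPM to 212, 201, 215 and 292 CPM, with 1 D7 mouse above the lowest D0 mouse, a log2 difference of -1.06 (SE 0.38, adjusted p = 0.0289).

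The decoy receptor Il1r2, like Il1b, fell in both genotypes. WT mice had 824, 697, 1239 and 564 CPM at D0 and 189, 360.3, 754 and 443 CPM at D7, where mouse 3 was again the highest and lay within the D0 range. Il1r2 fell 2.05-fold in WT (log2 -1.03, SE 0.37, adjusted p = 0.0477). For Trem2-/-, 856, 1234, 460.4 and 735 CPM at D0 stood above 183, 236, 256 and 290.3 CPM at D7, a 3.24-fold fall (log2 -1.70, SE 0.37, adjusted p = 0.00142). The calls of Il1b and of Il1r2 in WT were both lost without WT D7 replicate 1 (log2 -0.65 and -0.69) and without WT D0 replicate 3 (log2 -0.66 and -0.82).

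Il1r1, the signaling receptor, was the member of the IL-1 axis whose mean was higher at D7 in both genotypes, without passing the test in either. It was at 292, 85.8, 168 and 230.1 CPM at WT D0 and at 192, 161, 273 and 233 CPM at WT D7, a difference of 0.26 (95% interval -0.41 to 0.92, adjusted p = 0.553). Trem2-/- mice were at 258, 150.5, 125 and 221 CPM at D0 and at 233, 273, 219 and 279 CPM at D7, a difference of 0.46 (95% interval -0.20 to 1.13, adjusted p = 0.220). Both intervals include 0, and they reach past a log2 rise of 0.9. Without WT D0 replicate 2, the mouse at 85.8 CPM, the WT difference was -0.09.

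The balance of decoy to signaling receptor and of antagonist to agonist was read within each mouse as a ratio of CPM per kb, which does not depend on the scaling of the libraries. The ratio of Il1r2 to Il1r1 was 9.43, 27.1, 24.6 and 8.18 at WT D0 and 3.28, 7.46, 9.23 and 6.33 at WT D7. Its values in Trem2-/- were 11.1, 27.3, 12.3 and 11.1 at D0 and 2.62, 2.88, 3.90 and 3.47 at D7, so that every D7 mouse lay under every D0 mouse. The ratio of Il1rn to Il1b ranged from 0.156 to 0.257 at WT D0, from 0.162 to 0.385 at WT D7, from 0.135 to 0.211 at Trem2-/- D0 and from 0.203 to 0.269 at Trem2-/- D7. These ranges overlap within each genotype, and the ratios were not tested.

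**Figure D2:**
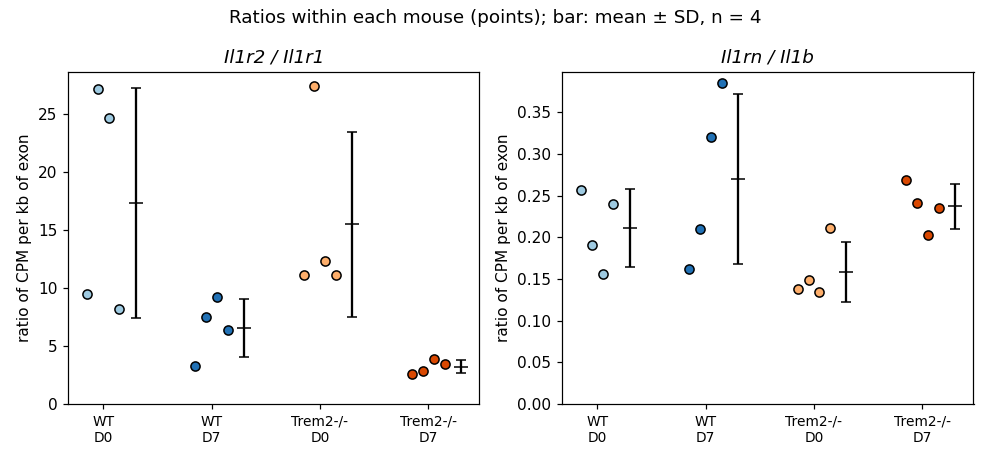
Ratio of CPM per kb of exon within each mouse (vertical axes, from 0, no unit) for Il1r2 over Il1r1 and for Il1rn over Il1b in the 4 groups. Points are mice and the bar is the mean ± SD (n = 4). The Il1r2 to Il1r1 ratio averaged 15.5 ± 7.95 at Trem2-/- D0 and 3.22 ± 0.576 at Trem2-/- D7.

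Il18 was rare and moved little. It was at 3.47, 3.68, 3.99 and 3.87 CPM at WT D0 and at 4.60, 3.91, 3.69 and 4.45 CPM at WT D7, and the difference of 0.12 (95% interval -0.22 to 0.46) did not pass the test. Trem2-/- mice were at 4.84, 5.37, 3.46 and 3.17 CPM at D0 and at 4.07, 3.17, 2.58 and 2.25 CPM at D7. The groups overlap, and the 1.30-fold fall (log2 -0.37, SE 0.16) had an unadjusted limma p of 0.0345 and an adjusted p of 0.0622. The call was lost without Trem2-/- D7 replicate 3 or 4 (log2 -0.32 and -0.28), without Trem2-/- D0 replicate 1 or 2 (log2 -0.31 and -0.27), with a pseudocount of 5 (log2 -0.20), in a fit of the Trem2-/- groups alone (log2 -0.37) and with voom on reads (log2 -0.43).

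Of the IL-6 family, Il6 fell in both genotypes. WT mice had 508, 152, 445 and 284 CPM at D0 and 146, 112, 172 and 139 CPM at D7, where D0 mouse 2 alone lay within the D7 range. The fall in WT was 2.23-fold (log2 -1.16, SE 0.32, adjusted p = 0.0165). Values in Trem2-/- of 551, 277, 253 and 413 CPM at D0 stood just above 173, 181, 203 and 251 CPM at D7, a 1.77-fold fall (log2 -0.83, SE 0.32, adjusted p = 0.0407). That call was lost without Trem2-/- D7 replicate 1 (log2 -0.76) and without Trem2-/- D0 replicate 1 or 4 (log2 -0.62 and -0.75).

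Osm, which encodes oncostatin M, fell in both genotypes. It was at 211, 299, 357 and 273 CPM at WT D0 and at 72.1, 163, 240.4 and 97.6 CPM at WT D7, where mouse 3 again lay within the D0 range. The fall in WT was 2.16-fold (log2 -1.11, SE 0.37, adjusted p = 0.0369). Values in Trem2-/- of 439.5, 282, 659.9 and 214 CPM at D0 stood above 69.6, 94.3, 117 and 140.0 CPM at D7, a 3.55-fold fall (log2 -1.83, SE 0.37, adjusted p = 0.000884). Lif, the neighbor of Osm, did not pass the test in either genotype. It was at 64.8, 30.2, 33.4 and 59.4 CPM at WT D0 and at 29.0, 37.3, 32.6 and 44.7 CPM at WT D7 (difference -0.32, 95% interval -0.94 to 0.30). In Trem2-/- mice it was at 84.7, 37.8, 50.3 and 31.4 CPM at D0 and at 36.6, 42.6, 55.0 and 55.5 CPM at D7 (difference -0.02, 95% interval -0.64 to 0.60).

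Tnf fell in Trem2-/- and did not pass the test in WT. WT mice had 42.8, 87.1, 86.6 and 64.2 CPM at D0 and 50.6, 64.6, 68.3 and 46.3 CPM at D7, which lie inside the D0 range (difference -0.25, 95% interval -0.86 to 0.36). Trem2-/- mice were at 148, 77.3, 133 and 53.1 CPM at D0 and at 39.3, 46.0, 45.4 and 53.2 CPM at D7, with D7 mouse 4 level with D0 mouse 4. The fall was 2.05-fold (log2 -1.04, SE 0.29, adjusted p = 0.00678). Without overlap between D0 and D7 mice, 4 of the 9 genes were lower in Trem2-/- (Il1b, Il1r2, Il6 and Osm), against 26.3% of all genes, and 0 of the 9 in WT, against 9.34%.

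**Figure D3:**
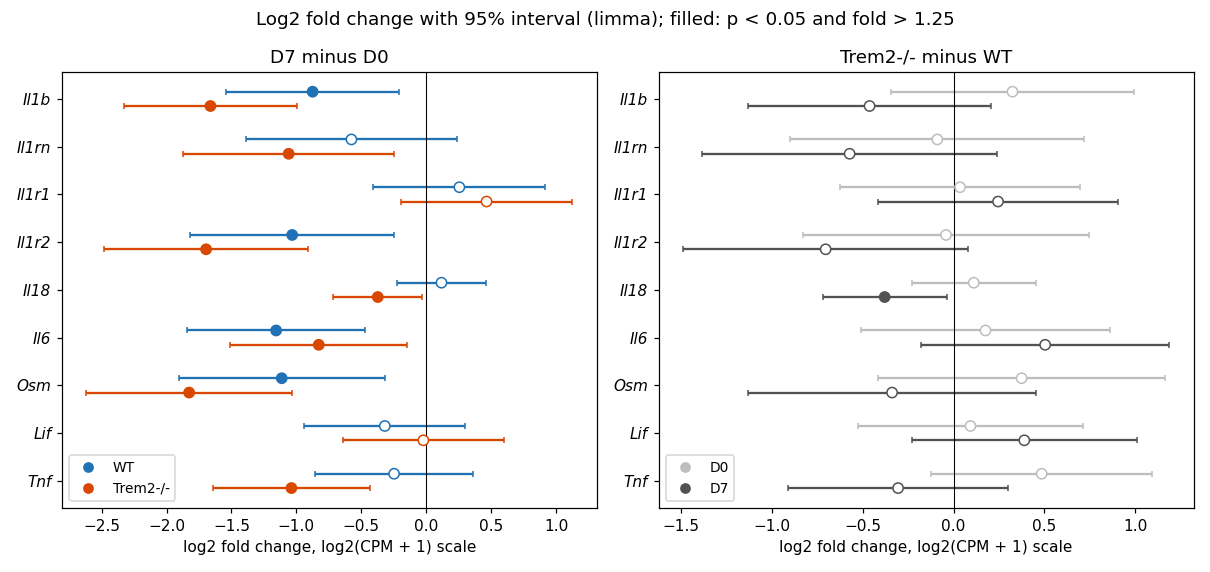
Log2 fold change on the log2(CPM + 1) scale (horizontal axes) with its 95% interval from limma for each of the 9 genes. The left panel gives D7 minus D0 in WT and in Trem2-/-, the right panel Trem2-/- minus WT at D0 and at D7, and filled points passed an unadjusted p under 0.05 and a log2 fold change beyond 0.32. Il1b, Il1r2, Il6 and Osm are filled for both genotypes on the left, and Il18 at D7 is the filled point on the right.

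Neutrophil and general leukocyte markers moved in the same direction as Il1b, Il1r2, Il6 and Osm. All 8 neutrophil markers fell in both genotypes (median log2 -1.47 in WT and -2.26 in Trem2-/-), and their summed level went from 13429 to 30395 CPM at WT D0 to 4208 to 13381 CPM at WT D7, and from 13797 to 39721 to 4100 to 6735 CPM in Trem2-/-. All 6 general leukocyte markers fell in both genotypes (median -0.75 and -1.79), from 2174 to 4416 CPM to 1330 to 2766 CPM in WT and from 2737 to 4750 CPM to 987 to 1201 CPM in Trem2-/-. Macrophage markers went the other way, with 7 of 8 higher in WT and 5 higher and 1 lower in Trem2-/-, and so did 4 of 6 fibroblast markers in WT and 5 of 6 in Trem2-/-. The summed fibroblast level went from 9332 to 42775 CPM at WT D0 to 65002 to 90052 CPM at WT D7, and from 7340 to 16128 to 82274 to 116603 CPM in Trem2-/-. Chondrocyte markers rose, 4 of 4 in both genotypes (median log2 2.89 in WT and 3.62 in Trem2-/-), with a summed level of 663 to 11805 CPM at WT D0, 26906 to 69029 CPM at WT D7, 999 to 3731 CPM at Trem2-/- D0 and 25197 to 38862 CPM at Trem2-/- D7. All 3 B cell markers (median -1.45 and -2.28) and both erythroid markers (median -1.05 and -1.65) fell in both genotypes. Of 2 monocyte markers 1 fell in WT and 2 in Trem2-/-, of 3 skeletal muscle markers 1 and 3, and of 3 endothelial markers 0 were called in either genotype. None of the listed markers found was at 0 in any library, and the part of these cell types in the results was not tested. In such mixed RNA, fewer cells of a type and less RNA per cell cannot be told apart.

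Around the 9 genes, 62 further genes of the same pathways were listed by role, of which 59 were in the table and tested. After injury 22 of the 59 fell and 3 rose in WT, and 31 fell and 7 rose in Trem2-/-, beside 18.2% lower and 19.3% higher in WT and 27.9% lower and 26.5% higher in Trem2-/- among all genes. The median of the 59 was -0.23 in WT and -0.38 in Trem2-/-. All 10 lists held genes that passed the test in at least 1 genotype, and the rises came from IL-6 family ligands, IL-1 family receptors and Il33.

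**Figure D4:**
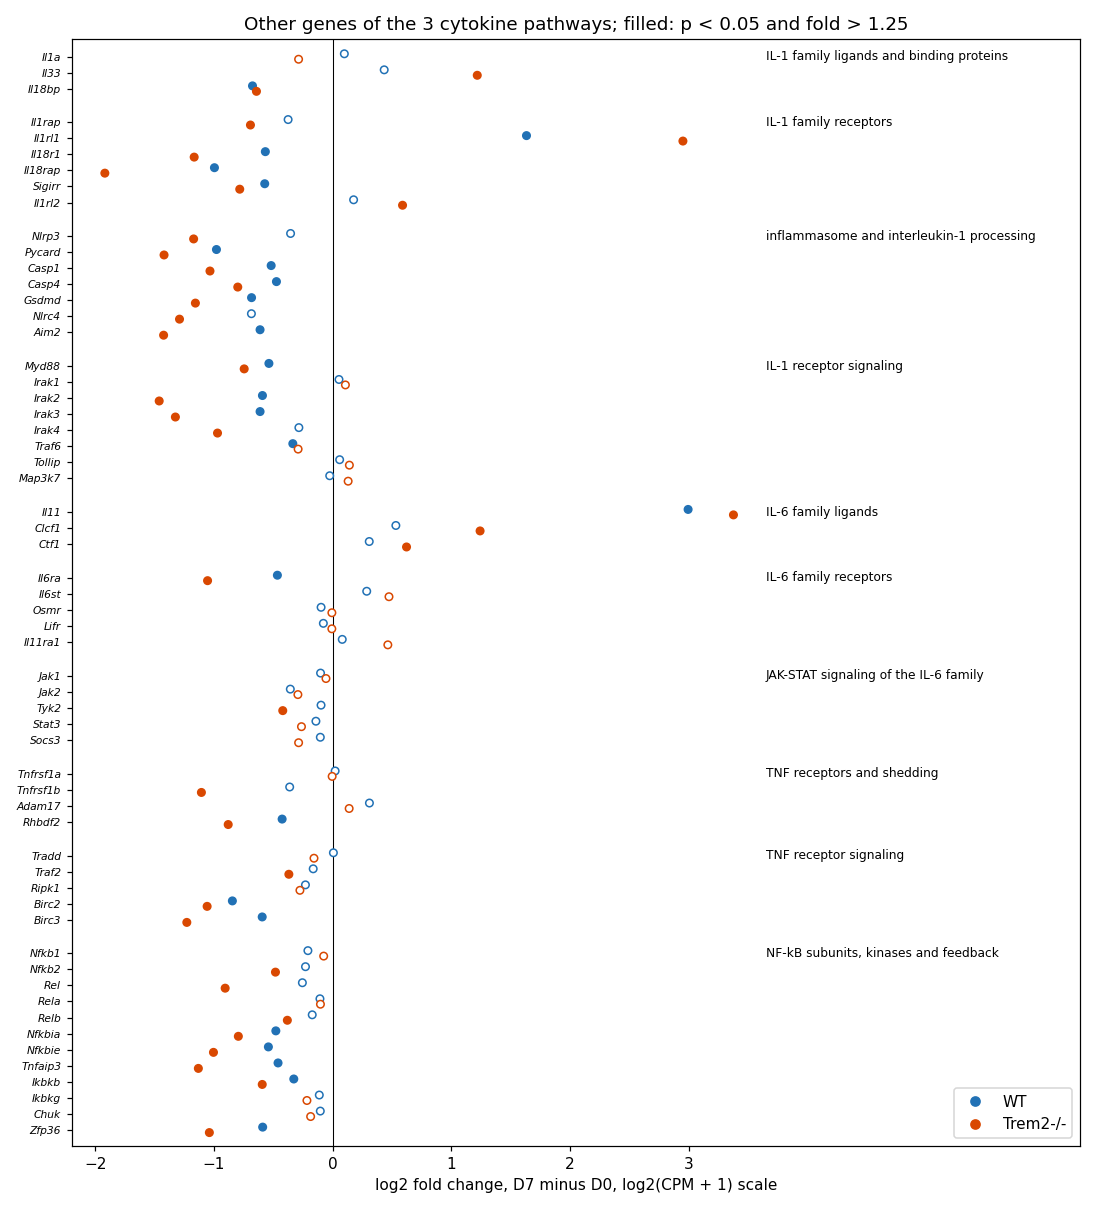
Log2 fold change of D7 minus D0 (horizontal axis, log2(CPM + 1) scale) for 58 of the 59 further pathway genes in 10 role groups, in WT and in Trem2-/-. Filled points passed an unadjusted p under 0.05 and a log2 fold change beyond 0.32. Il11 (3.00 in WT and 3.38 in Trem2-/-) and Il1rl1 (1.63 and 2.95) lie farthest to the right and Il18rap (-1.92 in Trem2-/-) farthest to the left.

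Of the inflammasome and processing genes, 5 of 7 fell in WT and 7 of 7 in Trem2-/-. Pycard, the adaptor that joins sensors to caspase-1, fell by 0.98 in WT and by 1.42 in Trem2-/- on the log2 scale. Aim2, a sensor of cytosolic DNA, fell by 0.61 and 1.43, and Gsdmd, the pore-forming protein that caspase-1 cleaves, fell by 0.68 and 1.16. Nlrp3, the sensor most tied to IL-1β maturation, was at -0.36 in WT, which did not pass the test, and fell by 1.17 in Trem2-/-.

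Of 6 IL-1 family receptor genes other than Il1r1 and Il1r2, 3 fell and 1 rose in WT, and 4 fell and 2 rose in Trem2-/-. Il1rl1, which encodes the IL-33 receptor ST2, rose from 52.2 ± 56.6 to 117 ± 31.6 CPM in WT (log2 1.63) and from 20.7 ± 5.98 to 167 ± 43.5 CPM in Trem2-/- (log2 2.95). Its ligand Il33 rose in Trem2-/- (log2 1.22, limma adjusted p = 0.0674) and was at 0.43 in WT, where it did not pass the test. Both chains of the IL-18 receptor fell, Il18rap from 47.3 ± 12.6 to 24.1 ± 10.00 CPM in WT and from 56.1 ± 14.0 to 13.8 ± 1.60 CPM in Trem2-/-, and Il18r1 by 0.57 and 1.17 on the log2 scale. Il18bp, the secreted binding protein that neutralizes IL-18, fell by 0.68 and 0.64.

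Downstream of the IL-1 receptor 4 of 8 genes fell in each genotype, not all of them the same genes. Traf6 fell by 0.34 in WT and was at -0.29 in Trem2-/-, under the fold limit. The kinase gene Irak4 fell by 0.97 in Trem2-/- and was at -0.29 in WT, where it did not pass the test. The adaptor Myd88 fell by 0.54 in WT and 0.75 in Trem2-/-, the kinase Irak2 by 0.59 and 1.46, and Irak3, a brake on this pathway in myeloid cells, by 0.61 and 1.33. The TGF-β-activated kinase Map3k7 and the regulator Tollip did not pass the test in either genotype (-0.03 and 0.06 in WT, and 0.13 and 0.14 in Trem2-/-).

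Among the other IL-6 family ligands, Il11, a fibroblast-derived member, rose in both genotypes, opposite in direction to Il6 and Osm. It went from 12.6 ± 12.9 to 76.2 ± 16.4 CPM in WT (log2 3.00) and from 5.21 ± 1.65 to 62.2 ± 8.64 CPM in Trem2-/- (log2 3.38). The ligand genes Clcf1 and Ctf1 also rose in Trem2-/- (log2 1.24 and 0.62) and did not pass the test in WT (0.53 and 0.31). Of the receptors, Il6ra fell in both genotypes, by 0.47 and 1.05, while Il6st, Osmr, Lifr and Il11ra1 did not pass the test in either, with values from -0.10 to 0.29 in WT and from -0.01 to 0.47 in Trem2-/-. Of the JAK and STAT genes, 0 of 5 changed in WT and Tyk2 alone, at -0.42, in Trem2-/-, with Stat3 at -0.14 and -0.26 and the feedback inhibitor Socs3 at -0.10 and -0.29.

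In the TNF arm the receptor Tnfrsf1a did not pass the test in either genotype (0.02 in WT), whereas Tnfrsf1b, the receptor of leukocytes, was at -0.36 in WT without passing the test and fell by 1.11 in Trem2-/-. Rhbdf2, needed to mature the TNF-shedding protease, fell by 0.43 and 0.88. The protease gene Adam17 was at 0.31 in WT, just under the fold limit though with a limma adjusted p of 0.0128. In Trem2-/- Adam17 was at 0.14 (limma adjusted p = 0.161). The ubiquitin ligases Birc2 and Birc3 of the TNF receptor complex fell by 0.85 and 0.59 in WT and by 1.06 and 1.23 in Trem2-/-. Of 12 NF-kB genes 5 fell in WT and 8 in Trem2-/-, among them the feedback genes Tnfaip3 (-0.46 and -1.13), Nfkbie (-0.54 and -1.01) and Zfp36 (-0.59 and -1.04), and Rela did not pass the test in either (-0.11 and -0.10).

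Trem2-/- and WT mice were then compared on the same day. At D7, Il18 passed as 1 of the 9 genes, 1.30-fold lower in Trem2-/- (log2 -0.38, 95% interval -0.72 to -0.04, adjusted p = 0.627), where 5.72% of all genes were called and 4.53% were called lower. WT D7 mice ranged from 3.69 to 4.60 CPM and Trem2-/- D7 mice from 2.25 to 4.07 CPM, so the groups overlap. With adjustment over all genes 0 of the 13173 genes passed at D7, where limma gave 958 an unadjusted p under 0.05. Trem2 itself (log2 -1.72, limma adjusted p = 0.0503) was among those that did not pass, so a missing adjusted call does not show that a gene is unchanged. On recovered reads, edgeR also passed 0 (1069 at an unadjusted p under 0.05) and voom with limma passed 1 (1025), which was none of the 9. Il18 lost its call without WT D7 replicate 1 or 4 (log2 -0.34 and -0.35), without Trem2-/- D7 replicate 3 or 4 (log2 -0.33 and -0.28), with a pseudocount of 5 (-0.20), with quantile normalization (-0.33) and with voom (-0.41).

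For the other 8 genes the intervals at D7 are wide. Il1r2 was lower in Trem2-/- by a log2 difference of -0.70 (95% interval -1.49 to 0.08, adjusted p = 0.720), Il1rn by -0.57 (-1.38 to 0.24) and Il1b by -0.46 (-1.13 to 0.21). WT D7 replicate 1 was the WT mouse lowest in all of these, at 288 CPM of Il1b, 136 CPM of Il1rn and 189 CPM of Il1r2. Without it the differences were -0.68 for Il1b, -1.01 for Il1rn and -1.05 for Il1r2, and all of these were called. Omission of other single mice moved them the other way, to as little as -0.23 for Il1b, -0.23 for Il1rn and -0.39 for Il1r2. The edgeR test on recovered reads called Il1rn (log2 -0.81, adjusted p = 0.603) and Il1r2 (-0.86, adjusted p = 0.560) beside Il18 with every mouse included. Voom with limma on the same reads called neither Il1rn (-0.50) nor Il1r2 (-0.63).

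Il6 had a positive log2 difference at D7. Every Trem2-/- D7 mouse, at 173 to 251 CPM, lay above every WT D7 mouse, at 112 to 172 CPM, though the lowest of one and the highest of the other almost met. The log2 difference of 0.50 (95% interval -0.18 to 1.19, adjusted p = 0.783) did not pass the test. It was called in a fit of the D7 mice alone, as was Lif (log2 0.39). Il6 was the 1 gene of the 9 whose genotype groups did not overlap at D7, against 8.33% of all genes, and 3.55% with Trem2-/- higher. Osm (-0.34), Tnf (-0.31) and Il1r1 (0.25) did not pass.

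With adjustment over all genes 0 of the 59 further pathway genes passed at D7. By the unadjusted call rule 7 of the 59 were lower and 0 higher in Trem2-/-, beside 4.53% of all genes called lower. The 7 were Aim2 (-0.69), Il18rap (-0.68), Irak2 (-0.63), Irak3 (-0.54), Rel (-0.44), Birc3 (-0.40) and Il6ra (-0.35). Of these, Il18rap is the accessory chain of the IL-18 receptor and Rel is an NF-kB subunit of leukocytes. Of the 6 general leukocyte markers 5 (median of the list -0.70) and 3 of 3 B cell markers (median -1.09) were lower in the same comparison, as were 3 of 8 macrophage markers (median -0.40) and 1 of 2 erythroid markers. The neutrophil markers had 0 of 8 called, all with negative values (median -0.51), and the part of these cell types in these differences was not tested. Leaving out WT D7 replicate 3 or 4 left 2 of these 59 genes called, leaving out Trem2-/- D7 replicate 2 left 3, and leaving out WT D7 replicate 2 gave 11.

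At D0, 0 of the 9 genes were called between genotypes by limma, edgeR or voom, with 0 at an unadjusted p under 0.05 in any of them, where 2.15% of all genes were called. Log2 differences ran from -0.09 for Il1rn to 0.49 for Tnf (95% interval -0.12 to 1.09), with Osm at 0.38 and Il1b at 0.32. Tnf and Osm were highest in Trem2-/- D0 mice 1 and 3 and near the WT values in mice 2 and 4. Without Trem2-/- D0 replicate 4 the Tnf difference was 0.76 and was called, and over all omissions of single mice it ranged from 0.27 to 0.76. Of the 59 pathway genes, Nfkbia, encoding the inhibitor of NF-kB, was higher in Trem2-/- (991 ± 127 against 729 ± 83.0 CPM, log2 0.44), and so was Tnfaip3, a deubiquitinase that limits TNF signaling (713 ± 165 against 500 ± 125 CPM, log2 0.52), where 0.782% of all genes were called higher. By adjusted p 0 genes differed at D0, with 385 at an unadjusted limma p under 0.05, and edgeR and voom also gave 0 adjusted calls (554 and 347 unadjusted).

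Whether injury changed these genes differently by genotype was tested as an interaction. Il18 passed as 1 of the 9 (log2 -0.49, 95% interval -0.97 to -0.01, adjusted p = 0.610), where 7.79% of all genes were called and 5.02% were called lower. Tnf (-0.79, 95% interval -1.65 to 0.07), Il1b (-0.79, -1.73 to 0.16), Osm (-0.71) and Il1r2 (-0.66) had larger but less certain values. Il1rn was at -0.48, while Il6 (0.33), Lif (0.30) and Il1r1 (0.21) had positive values, and none of these passed the test. The larger number of falls in Trem2-/- than in WT was thus not shown to differ by genotype for these genes. The edgeR test on reads called Tnf (-0.88) and did not call Il18 (-0.61). Leaving out single mice gave between 0 and 3 of the 9 genes called, and 12 of the 16 omissions ended the call of Il18. Of the 59 pathway genes 11 were called and lower, among them Irak2 (-0.87), Irak3 (-0.71), Rel (-0.65) and Il6ra (-0.59). Called lower in the same test were 5 of the 6 general leukocyte markers (median of the list -0.96) and 4 of 8 macrophage markers (median -0.52), and 0 of 8 neutrophil markers were called, all with negative values (median -0.85). In the other direction 1 of 6 fibroblast markers was called higher, and all 6 had positive values. The part of these cell types was not tested. The 9 and the 59 genes had 0 adjusted calls here, as did all genes, of which limma gave 1075 an unadjusted p under 0.05, and edgeR and voom also gave 0 over all genes (1267 and 1067 unadjusted).

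Across the 16 libraries the likeness of the 9 genes is given as Pearson's r of log2(CPM + 1), with no test, since the libraries share groups and depth differs between them. The highest values were 0.95 for Il1b with Il1r2 and 0.93 for Il1r2 with Il1rn, and Il1b with Il1rn had 0.85. These pairs had r of 0.89, 0.91 and 0.79 after subtraction of each group's mean. Osm and Tnf had an r of 0.87, and of 0.80 for the deviations. Osm was also like Il1b (0.85) and Il1r2 (0.76) over all libraries, and Tnf like Il1b (0.73), with lower values for the deviations (0.51, 0.34 and 0.44). Il6 and Il1r1 had an r of 0.26 over all libraries and 0.85 for the deviations, so mice of a group that were high in one tended to be high in the other. Il1b and Il6 were less alike within groups (0.65, and 0.33 for the deviations), and Il1r2 and Lif had an r of 0.00 for the deviations.

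**Figure D5:**
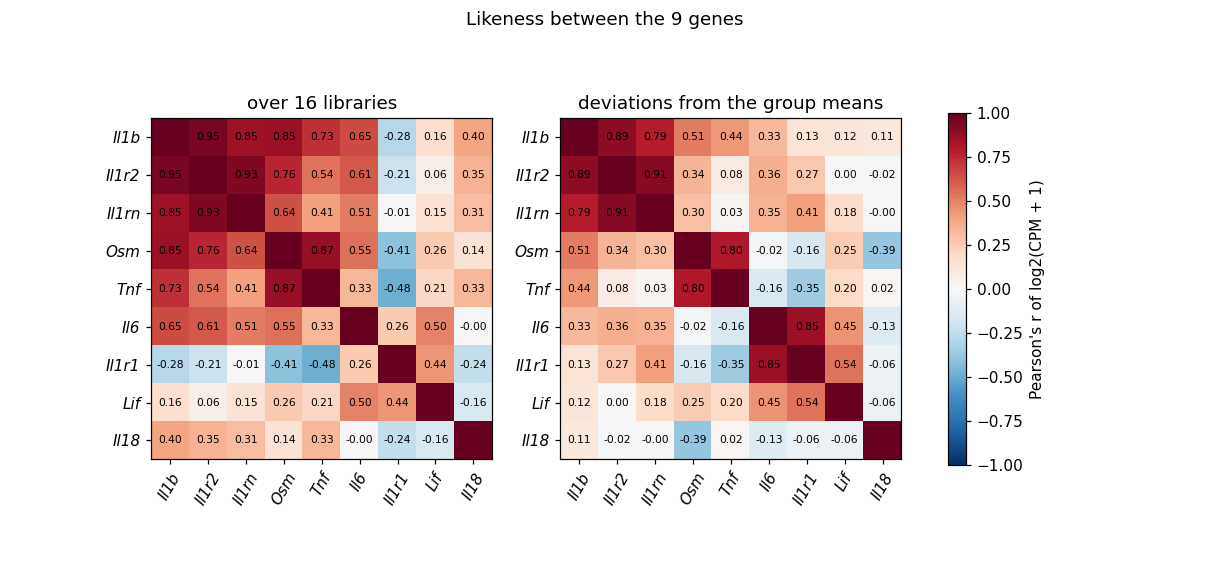
Pearson's r of log2(CPM + 1) between each pair of the 9 genes, over 16 libraries on the left and for deviations from the 4 group means on the right. The color scale runs from -1 to 1 and each cell prints its r. On the left Il1b has high r with Il1r2 (0.95), Osm (0.85) and Il1rn (0.85), and on the right Il6 with Il1r1 is at 0.85 while Il1b with Osm is at 0.51.

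Among all genes that averaged 5 CPM or more, the ones most like each of the 9 were also named by r over the 16 libraries. Il1b was closest to Rab20 (0.98), Slc27a4 (0.98) and Clec4e (0.98), the last a lectin receptor of myeloid cells. Il1r2 was closest to Jdp2 (0.98), Litaf (0.97) and Clec7a (0.97), which encodes the β-glucan receptor dectin-1. Il1rn was closest to Ninj1 (0.97), Thbs1 (0.96) and Entpd1 (0.96). Il6 was closest to the eosinophil chemokine gene Ccl11 (0.96), the histamine receptor gene Hrh1 (0.92) and the adhesion molecule gene Icam1 (0.90), and Il1r1 to Ugdh (0.95), which encodes an enzyme of hyaluronan precursor synthesis, Bend3 (0.94) and Dennd2a (0.93). Osm was closest to Wfdc21, Trib1 and Ceacam10, each at 0.97, and Tnf to Ccl9, Emb and Dok2, each at 0.94. Lif and Il18 had no gene as close, with Scamp1 (0.80), Vcam1 (0.74) and Ube2f (0.74) for Lif and Fhl3 (0.82), Plekhm3 (0.74) and Tet2 (0.72) for Il18.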

How the data were processed

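The 16 libraries, of 4 WT and 4 Trem2-/- mice at D0 and the same numbers at D7, were grouped by what their labels give as genotype and condition. The labels number the replicates 1 to 4, read here as 1 mouse each, and p-values measure only the spread between these samples. The authors deposited signal values, the CPM that edgeR's TMM method gives from reads aligned to mm10 with STAR and counted per gene with featureCounts. Tool versions, annotation and strand setting are not given in the sources used here, so reads of overlapping antisense genes cannot be told apart, and the labels and the paper name different library kits. All values (100%) were whole multiples of the value of 1 read in their library, within 0.01 reads, and the recovered reads were used in count tests. A count of 3 reads corresponds to between 0.101 and 0.250 CPM, a floor that covers counting error only. No 2 replicates were alike within sampling noise (chi-square at least 10.4 times its degrees of freedom). Fcgr1, listed more than once with identical values, was counted once.

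The 13173 of 13733 genes that reached 1 CPM in 4 or more libraries were compared on the log2(CPM + 1) scale with limma 3.58.1 (eBayes with trend) in R 4.3.3, with the 4 groups as one factor, so fold changes of low genes are understated. The call rule, an unadjusted p under 0.05 with a log2 fold change beyond 0.32, is that of the study's methods, and Benjamini-Hochberg values are over all genes tested. On the recovered reads, edgeR 4.0.16 called 5024 genes for injury in WT (limma 4933), 7279 in Trem2-/- (7173), 891 for genotype at D7 (753), 466 for genotype at D0 (283) and 1226 for the interaction of both (1026). The limma test for injury in WT was checked on simulated counts with known changes, placed in a small set of genes at WT D7. The other comparisons were not checked in this way.

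The 9 genes and all lists were chosen with earlier results of these data known. Named genes are the 9 genes, up to 3 genes per pathway list called the same way after injury in both genotypes, pathway genes called between genotypes at D7, and the 3 genes with the highest r with each of the 9. The values of 1 pathway gene that this rule names are not reported here. Other pathway genes named in the text were chosen for their role after their values were seen. The alternatives tried are pseudocounts of 0.1 and 5, no filter, a mean of at least 5 CPM, quantile and median-of-ratios (DESeq2 1.42.0 size factors) normalization, only the groups compared, eBayes with no trend, blocking by replicate number, omission of each replicate, edgeR, voom, and a fold over 1.5. Positions and exon lengths are from GENCODE M21 on GRCm38, the mm10 build, and 13413 symbols matched. Promoter windows are from RefSeq.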

Additional observations from a re-analysis of the deposited data

Results flagged for a closer look

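A single distant mouse or an interaction marked 3 results, out of 44 group values examined for a distant mouse and 9 interactions. Il1rn at Trem2-/- D7 had 1 mouse apart, at 292 CPM against 201 to 215 CPM in the other 3, a gap of 0.846 of the group's range and above Dixon's 95% critical value for 4 mice. The ratio of Il1r2 to Il1r1 at Trem2-/- D0 had 1 mouse at 27.3 against 11.1 to 12.3 in the other 3, a gap of 0.922 of the range. Chance alone marks about 1 in 20 such groups, and 2 of 44 were marked. The injury effect on Il18 differed between genotypes by -0.49 on the log2 scale in the interaction test (limma, adjusted p = 0.610), at 27 to 121 reads per library.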

How the results depend on the processing

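The number of the 9 genes that fell after injury stayed within 1.5 times the reported count under every alternative except 2 omissions. Leaving out single mice gave 2 to 5 in WT, with 2 without WT D7 replicate 1 or WT D0 replicate 3, and 5 to 7 in Trem2-/-. For genotype at D7, 0 of the 9 were called with a pseudocount of 5, a 5 CPM minimum mean (which leaves Il18 untested), quantile normalization, voom or a fold over 1.5. Fitting the compared groups alone called 3 (Il18, Il6 and Lif), edgeR called 3 (Il18, Il1r2 and Il1rn), and omitting single mice gave 0 to 3, with 0 without WT D7 replicate 4 or Trem2-/- D7 replicate 3 or 4. At D0 omission gave 0 to 1. For the interaction 0 were called with a pseudocount of 5, a 5 CPM minimum mean, quantile normalization, voom or a fold over 1.5, and 0 to 3 without single mice, with 3 without WT D7 replicate 1. The cause of these changes was not tested.

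Of the 59 pathway genes, a fold over 1.5 left 13 of 25 called for injury in WT, 3 of 7 at D7 and 0 of 2 at D0. Fitting the compared groups alone called 18 at D7 and 1 at D0, and edgeR called 4 at D0. Omitting single mice gave 17 to 30 for injury in WT, 2 to 11 at D7, 1 to 8 at D0 (8 without Trem2-/- D0 replicate 4) and 6 to 16 for the interaction. Of all genes, a fold over 1.5 left 2985 for injury in WT, 340 for genotype at D7, 131 for genotype at D0 and 635 for the interaction. The compared groups alone gave 1366 at D7 and 149 at D0, and a pseudocount of 5 gave 164 at D0. Leaving out WT D0 replicate 2 gave 1231 at D0 and 2236 for the interaction, and the lowest counts without single mice were 480 for genotype at D7, 107 for genotype at D0 and 609 for the interaction.

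The signs that turned were all of differences that passed no test. Without single mice the injury effect ranged from -0.089 to 0.50 for Il1r1 in WT and from -0.22 to 0.25 for Lif in Trem2-/-. The genotype difference at D0 ranged from -0.24 to 0.16 for Il1rn, from -0.31 to 0.28 for Il1r1, from -0.27 to 0.21 for Il1r2, from -0.17 to 0.41 for Il6 and from -0.18 to 0.29 for Lif, and it was -0.041 for Il1r1 with edgeR. The interaction of Il1r1 ranged from -0.031 to 0.55. Il1rn was called for injury in WT without WT D7 replicate 3 (log2 -0.92).

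Deviations of same-numbered mice from their group means correlated between -0.51 and 0.41 over 24 pairs, 11 of them over 0.1. Differently numbered mice were not compared, so these values cannot decide whether the numbers pair the mice. With the replicate number as a block, the calls among the 9 genes numbered 4 for injury in WT, 7 for injury in Trem2-/-, 1 by genotype at D7, 0 by genotype at D0 and 1 for the interaction, and among the 59 pathway genes 25, 38, 8, 2 and 10. With 4 mice a group, the intervals of 8 of the 9 genes span a log2 range above 1 in every comparison.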
